A study of Mus musculus with 10 samples.

Results

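The genes described here are 6 genes of the suprabasal epidermis, *Krt1*, *Krt10*, *Krt77*, *Dmkn*, *Krtdap* and *Sbsn*, chosen by symbol from the 53465 genes of a count table. They were proposed with the difference between the genotypes already known, so their levels by genotype are given as a description without a test. Pinna prominences, the forming external ears, were taken at E14.5 from mice on a C57BL/6 J background, and poly(A) RNA was sequenced in bulk. The 5 WT libraries came from embryos without the edit, and the 5 mEC1dup/dup libraries from embryos in which CRISPR/Cas9 had placed an additional copy of the enhancer mEC1 on both alleles. mEC1 is an element near *Hmx1*, a homeobox gene, and no agent or Cre was used in either group. The libraries are stated to be independent embryos, and the litters they came from are not given for each. The comparison asks how expression in the pinna differed between the genotypes, and the libraries are numbered 1 to 5 within each genotype by their labels.

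The embryonic epidermis grows from a basal layer, marked by the keratins *Krt5* and *Krt14*. Cells that leave this layer switch to suprabasal keratins as they differentiate. *Krt1*, a type II keratin, pairs with the type I keratin *Krt10* to form the intermediate filaments of the spinous layer, and *Krt77* is another type II keratin, known from suprabasal skin and sweat ducts. *Dmkn* (dermokine), *Krtdap* (keratinocyte differentiation-associated protein) and *Sbsn* (suprabasin) lie side by side on mouse chromosome 7 and encode secreted proteins of the differentiating epidermis. Of the genes of the last step, cornification, 14 of 20 listed did not pass the filter on low counts: *Flg* (filaggrin), for example, had 2 counts over all 10 libraries, and *Lce1b* and *Lce1m*, which encode late cornified envelope proteins, had 0. *Loricrin*, *Tchh* and 4 others were measured. Markers of both the basal and the suprabasal layers were measured, and the 6 genes are called suprabasal genes below for their known site of expression, since bulk RNA does not show which cells held a transcript.

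The genes sit at 3 places in GRCm39. *Sbsn* (ENSMUSG00000046056, chr7:30450896-30455559), *Dmkn* (ENSMUSG00000060962, chr7:30463176-30480488) and *Krtdap* (ENSMUSG00000074199, chr7:30487321-30490522) follow each other on the plus strand, with 7617 bases between the first pair and 6833 between the next. *Krt1* (ENSMUSG00000046834, chr15:101753861-101759229) and *Krt77* (ENSMUSG00000067594, chr15:101767166-101778245) are both on the minus strand, 7937 bases apart. *Krt10* (ENSMUSG00000019761, chr11:99276072-99280195, minus strand) lies with other type I keratins. Exons of other annotated RNAs overlap some of them: the antisense *Gm72787* covers 13.4% of the exonic bases of *Dmkn* and 9.72% of those of *Krtdap*, the antisense *Gm11940* covers 6.86% of those of *Krt10*, and *Tmem147os*, on the same strand, covers 7.85% of those of *Sbsn*. Whether the counting used strand is not given in the sources used here, so reads in these stretches cannot be assigned with certainty.

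The promoters of the chromosome 7 neighbours, which differed by unequal amounts between the genotypes, are shown with that of *Krt10*, the most abundant of the 6. The RefSeq promoter table (GRCm38.p6) held entries for 5 of the 6 genes. Each stretch below has 270 bases in the direction of transcription, 250 before the start and 20 from the start on, and matches GRCm39 exactly at 1 place. Capitals mark matches to the motifs searched.
Sbsn, chr7:30450646-30450915, plus strand: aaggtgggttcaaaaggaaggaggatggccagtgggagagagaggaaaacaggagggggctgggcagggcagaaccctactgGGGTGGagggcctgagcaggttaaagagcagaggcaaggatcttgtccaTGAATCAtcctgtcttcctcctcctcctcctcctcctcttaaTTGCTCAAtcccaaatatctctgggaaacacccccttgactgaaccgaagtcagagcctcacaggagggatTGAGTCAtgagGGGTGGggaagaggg
Dmkn, chr7:30462931-30463200, plus strand: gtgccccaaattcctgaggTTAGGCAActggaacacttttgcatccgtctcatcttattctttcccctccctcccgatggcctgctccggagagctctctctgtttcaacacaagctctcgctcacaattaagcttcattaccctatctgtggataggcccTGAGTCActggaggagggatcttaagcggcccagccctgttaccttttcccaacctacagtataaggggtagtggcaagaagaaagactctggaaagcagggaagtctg
Krtdap, chr7:30487080-30487349, plus strand: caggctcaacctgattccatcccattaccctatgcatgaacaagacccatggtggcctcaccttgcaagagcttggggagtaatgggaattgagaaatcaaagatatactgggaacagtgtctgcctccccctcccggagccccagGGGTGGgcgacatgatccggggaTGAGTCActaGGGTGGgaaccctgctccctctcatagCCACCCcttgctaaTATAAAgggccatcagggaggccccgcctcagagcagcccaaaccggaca
Krt10, chr11:99280171-99280440, minus strand: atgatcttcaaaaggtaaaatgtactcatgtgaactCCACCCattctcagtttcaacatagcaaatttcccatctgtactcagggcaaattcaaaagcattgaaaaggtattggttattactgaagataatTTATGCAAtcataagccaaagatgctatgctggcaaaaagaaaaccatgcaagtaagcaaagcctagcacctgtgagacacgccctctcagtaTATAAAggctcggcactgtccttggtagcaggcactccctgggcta

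Motifs were searched on both strands in the full windows, 250 bases before and 50 bases after the start, and compared with all 32851 promoters of the table. TGANTCA, the letters of AP-1 (the Fos and Jun factors), was found in *Sbsn* at 119 and at 6 bases before the start, in *Dmkn* at 89 and in *Krtdap* at 81. It was also present 82 bases before an internal start of *Dmkn* (start at position 30475830), and 7.81% of all promoters held it. *Krt10* and *Krt77* had no such match. TATAAA (the TATA box) stood 30 bases before the start of *Krtdap* and 26 before that of *Krt10*, against 13.6% of all promoters. TTGCNNAA (C/EBP) occurred in *Sbsn*, *Dmkn*, *Krt10* and *Krt77* and in 10.8% of all promoters, and CCACCC (KLF and SP factors) in *Sbsn*, *Krtdap*, *Krt10* and the window of the internal start of *Dmkn* and in 31.5%. No match overlapped another. CAAGTG, the core that HMX factors bind, and AACNGGTT, the letters of GRHL factors, were in none of these windows; 13.6% and 2.09% of all promoters held them. The capitals describe letters in the sequence, and binding was not measured.

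Total counts per library ranged from 17461544 to 18462073. *Hmx1*, whose enhancer was duplicated, was higher in each mEC1dup/dup library than in each WT library, with 26.6 ± 3.0 CPM (counts scaled to the library's TMM-normalized size) in WT and 66.2 ± 9.11 in mEC1dup/dup (SD, n = 5 each). The embryos' sex was uneven: all 5 WT libraries and mEC1dup/dup 5 had 0 to 5 reads of *Xist*, which female cells express, and mEC1dup/dup 2 and 3 had 18165 to 19040 with few reads of the Y-linked *Ddx3y*. mEC1dup/dup 1 and 4 held both kinds, with 12812 and 2096 *Xist* reads beside 241 and 1219 *Ddx3y* reads, although each library is described as an embryo of its own. Of the reads on globin genes, the embryonic globins took 18.4% to 23.3% in WT and 32.5% to 35.6% in mEC1dup/dup, without overlap. Genotype and this share of embryonic globin therefore cannot be told apart in these libraries.

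Across the table, 16426 genes passed the filter on low counts. Differentially expressed genes (DEGs) had an adjusted p of at most 0.05 (edgeR's quasi-likelihood test, Benjamini-Hochberg over all genes tested) and averaged 1 or more in log2 CPM. On this rule 297 genes (1.81%) were lower and 137 (0.834%) were higher in mEC1dup/dup, and the median log2 fold change over all genes was -0.0041. With single libraries left out, these counts ran from 120 to 476 and from 34 to 179. They were 1 and 2 with *Xist* as a covariate, so most of the suprabasal calls given next were lost in that fit. More than 5 *Xist* reads were found in mEC1dup/dup libraries alone, so this covariate is largely tied to genotype. The part of sex was not tested. All 6 suprabasal genes passed the filter, and 5 of them, all but *Sbsn*, were DEGs; they were chosen with this known, and nothing is read from the count. In those 5, each mEC1dup/dup library lay below each WT library, as it did in 2.75% of all genes tested.

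*Krt1* had 169.5, 112, 82.2, 62.6 and 56.1 CPM in WT libraries 1 to 5, and 29.1, 21.1, 22.7, 21.1 and 29.3 CPM in mEC1dup/dup libraries 1 to 5. The groups were separate, with WT 5 the nearest to mEC1dup/dup. Mean levels were 96.6 ± 46.3 CPM in WT and 24.7 ± 4.21 CPM in mEC1dup/dup (SD, n = 5 each), and the log2 fold change was -1.97 (SE 0.27). Its partner *Krt10* had 174, 118, 103, 71.5 and 67.2 CPM in WT 1 to 5 and 34.5, 27.1, 26.6, 25.5 and 32.8 CPM in mEC1dup/dup 1 to 5. The means of *Krt10* were 106.7 ± 43.0 and 29.3 ± 4.05 CPM, a log2 fold change of -1.86 (SE 0.23). By their means, *Krt1* was 3.92 times and *Krt10* 3.64 times higher in WT. In bulk RNA, fewer cells of a type and less RNA per cell cannot be told apart.

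*Krt77* had the widest separation. Its level was 48.8, 31.4, 18.9, 11.4 and 9.42 CPM in WT 1 to 5 and 2.40, 1.49, 1.63, 1.46 and 1.90 CPM in mEC1dup/dup 1 to 5. These values rest on 170 to 845 reads in WT and on 27 to 42 reads in mEC1dup/dup. The lowest WT library was 3.92 times the highest mEC1dup/dup library. The means were 24.0 ± 16.4 and 1.77 ± 0.39 CPM, a log2 fold change of -3.75 (SE 0.45). *Krt1* and *Krt77* are related type II keratins, and how reads shared by keratins were counted is not stated.

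In the chromosome 7 cluster the 3 neighbours differed by unequal amounts. *Dmkn* had 59.4, 40.5, 31.3, 27.2 and 18.4 CPM in WT 1 to 5 and 5.09, 4.02, 3.48, 3.24 and 6.55 CPM in mEC1dup/dup 1 to 5. Its means were 35.4 ± 15.6 and 4.47 ± 1.36 CPM, a log2 fold change of -2.98 (SE 0.30), and the lowest WT library was 2.81 times the highest mEC1dup/dup library. *Krtdap*, the next gene downstream, had 23.9, 17.3, 15.9, 12.8 and 8.86 CPM in WT 1 to 5 and 6.29, 3.80, 4.78, 4.10 and 4.93 CPM in mEC1dup/dup 1 to 5. The groups of *Krtdap* were separate by a smaller margin, with means of 15.7 ± 5.60 and 4.78 ± 0.963 CPM and a log2 fold change of -1.72 (SE 0.23). *Sbsn*, at the other end of the cluster, had 7.34, 4.82, 3.98, 2.99 and 2.82 CPM in WT 1 to 5 and 2.69, 3.14, 2.34, 2.59 and 1.79 CPM in mEC1dup/dup 1 to 5. Here the groups overlapped, since mEC1dup/dup 2 was above WT 4 and WT 5. The means of *Sbsn* were 4.39 ± 1.83 and 2.51 ± 0.497 CPM, a log2 fold change of -0.81 (SE 0.26), on 33 to 127 reads per library. *Sbsn* was not a DEG.

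**Figure D1:**
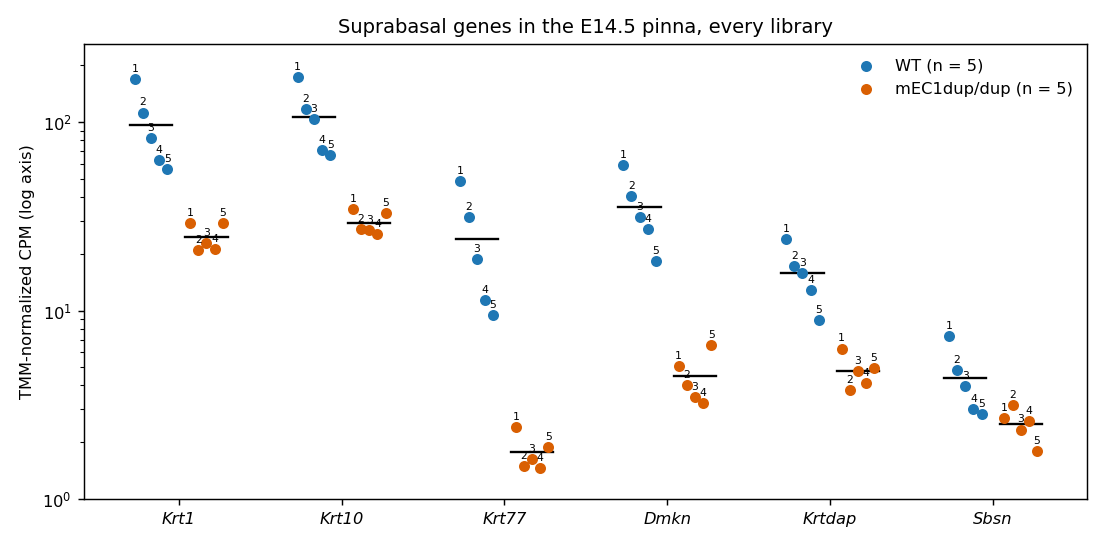
Level of each suprabasal gene in every library, in TMM-normalized CPM on a log axis; points are libraries with their numbers (WT blue, mEC1dup/dup orange, n = 5 each) and bars are group means. The mEC1dup/dup libraries lie below all WT libraries for 5 genes, while for *Sbsn* mEC1dup/dup 2 (3.14 CPM) is above WT 4 and WT 5.

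For all 6 genes the direction was the same without the libraries that held both kinds of reads. mEC1dup/dup 5, the only library of its group without *Xist*, was below every WT library for all 6 genes. With mEC1dup/dup 1 and 4 left out (a choice made after seeing the data), they were on the log2 scale -1.98 (*Krt1*), -1.88 (*Krt10*), -3.83 (*Krt77*), -2.91 (*Dmkn*), -1.80 (*Krtdap*) and -0.85 (*Sbsn*). When the share of embryonic globin entered the fit as a covariate, another later choice, the estimates turned positive for all 6 genes. They ran from 0.20 (SE 0.77) for *Dmkn* to 1.34 (SE 1.01) for *Sbsn*. The share of embryonic globin has no overlap between the groups. Within WT the share was 18.4%, 21.6%, 20%, 23.3% and 23.1% in libraries 1 to 5, and within mEC1dup/dup 34.6%, 35%, 35.6%, 33.6% and 32.5%. The part of embryo maturity in the difference was not tested.

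Variation among WT libraries was wide and shared. The WT order 1, 2, 3, 4, 5 from highest to lowest was found in all 6 genes, an order that 184 of 16426 genes tested (1.12%) had. Other epithelial genes had it too, among them *Krt5*, *Krt14* and *Krt15*: it was found in 22.2% of the other suprabasal, 33.3% of the granular and cornified, 28.6% of the basal, 27.3% of the periderm, 27.8% of the shared epithelial, 4.17% of the regulator and 2% of the other cell type genes tested. *Trp63*, *Epcam* and *Cdh1* did not have it. From the lowest to the highest WT library, *Krt77* spanned 5.19-fold, *Dmkn* 3.23-fold, *Krt1* 3.02-fold, *Krtdap* 2.7-fold, *Sbsn* 2.60-fold and *Krt10* 2.58-fold. Among mEC1dup/dup libraries the spans were 1.35-fold (*Krt10*) to 2.02-fold (*Dmkn*). The coefficient of variation was 35.5% to 68.2% in WT and 13.8% to 30.4% in mEC1dup/dup, and for each of the 6 genes it was larger in WT. In mEC1dup/dup the libraries did not keep 1 order, with library 1 highest for *Krt10*, *Krt77* and *Krtdap*, library 5 for *Krt1* and *Dmkn*, and library 2 for *Sbsn*.

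Levels were compared between genes as CPM per kilobase of merged exons. In WT, *Krt10* led with 50.2 ± 20.2, followed by *Krtdap* (23.2 ± 8.24), *Krt1* (21.9 ± 10.5), *Dmkn* (16.3 ± 7.19), *Krt77* (7.90 ± 5.39) and *Sbsn* (1.2 ± 0.501; SD, n = 5). Each gene was above the next in all 5 WT libraries except *Krtdap*, which was above *Krt1* in 3. The merged exons of *Krt1* join into 2 blocks of 4415 bases, against a coding length of 1911, and per kilobase of coding length *Krt1* (50.5 ± 24.2) stood above *Krtdap* (49.5 ± 17.6), in 3 of 5 libraries. These neighbours do not differ beyond their spread. In mEC1dup/dup, *Krt10* led again with 13.8 ± 1.90 per kilobase of merged exons. *Krt77* came last there, at 0.584 ± 0.129, below *Sbsn* at 0.686 ± 0.136 in 3 of 5 libraries, whereas in WT it was above *Sbsn* in each library.

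Proportions between the genes within a library are free of scaling. For 100 reads of *Krt10* there were 97.7, 95.5, 79.5, 87.5 and 83.4 reads of *Krt1* in WT 1 to 5 and 84.4, 77.6, 85.3, 82.9 and 89.4 in mEC1dup/dup 1 to 5. The groups overlapped for this keratin pair. For 100 reads of *Krt1*, *Krt77* had 28.8, 28, 22.9, 18.1 and 16.8 reads in WT and 8.24, 7.07, 7.18, 6.89 and 6.47 in mEC1dup/dup. *Dmkn* had 35.0, 36.0, 38.1, 43.5 and 32.8 reads per 100 of *Krt1* in WT and 17.5, 19.1, 15.3, 15.3 and 22.4 in mEC1dup/dup. Both proportions were lower in mEC1dup/dup without overlap. *Krtdap* per 100 *Krt1* overlapped, at 17 ± 2.73 in WT and 19.4 ± 1.99 in mEC1dup/dup. *Sbsn* per 100 *Krt1* was higher in each mEC1dup/dup library, at 4.65 ± 0.332 in WT and 10.6 ± 3.30 in mEC1dup/dup. Inside the cluster, 220.0 ± 20.8 reads of *Dmkn* in WT and 94.3 ± 25 in mEC1dup/dup stood against 100 of *Krtdap*.

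**Figure D2:**
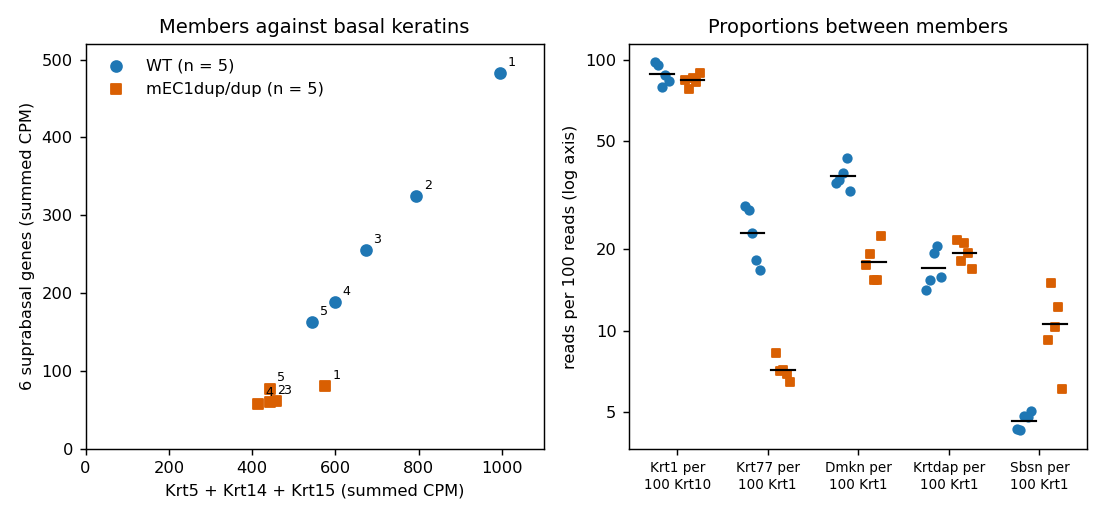
Left, summed CPM of the 6 suprabasal genes against summed CPM of the basal keratins *Krt5*, *Krt14* and *Krt15* in each library; right, reads of 1 gene per 100 reads of another on a log axis, with bars at the group means (WT circles, mEC1dup/dup squares, n = 5 each). mEC1dup/dup 1 reaches 575.7 CPM of basal keratins, above WT 5 at 544.7, with 80.1 CPM of the suprabasal genes against 162.8.

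Basal keratins were set beside the suprabasal genes in each library. The sum of *Krt5*, *Krt14* and *Krt15* was 994.8, 794.5, 673, 599.7 and 544.7 CPM in WT 1 to 5 and 576, 444, 457, 414 and 443 CPM in mEC1dup/dup 1 to 5. The groups of basal keratins overlapped at mEC1dup/dup 1 and WT 5. The 6 suprabasal genes summed to 482.5, 324, 256, 188 and 163 CPM in WT 1 to 5 and to 80.1, 60.6, 61.5, 58.0 and 77.2 CPM in mEC1dup/dup 1 to 5. For 100 CPM of basal keratin, they had 48.5, 40.8, 38.0, 31.4 and 29.9 CPM in WT and 13.9, 13.7, 13.5, 14 and 17.4 in mEC1dup/dup. The log2 of this proportion differed by -1.36 between the group means. By gene, it differed by -2.91 for *Krt77*, -2.32 for *Dmkn*, -1.26 for *Krt1*, -1.18 for *Krt10*, -1.06 for *Krtdap* and -0.14 for *Sbsn*.

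The tested protein-coding neighbours on chromosome 7 were not DEGs, with estimates near 0. *Gapdhs*, 7790 bases before *Sbsn*, had a log2 fold change of -0.02 (SE 0.26; adjusted p = 0.983, edgeR's quasi-likelihood test), at 1.65 ± 0.498 CPM in WT and 1.63 ± 0.438 in mEC1dup/dup. *Tmem147*, the next gene out, had 41.4 ± 4.03 and 39.8 ± 1.2 CPM and a log2 fold change of -0.06 (SE 0.06; adjusted p = 0.738). *Atp4a* and, past *Krtdap*, *Ffar2*, *Ffar3* and *Ffar1* had 0 to 49 counts summed over a genotype and did not pass the filter. On chromosome 15, *Krt72*, *Krt73*, *Krt2*, *Krt76* and *Krt79* had 0 to 37 counts per genotype. *Krt4*, a keratin of mucosal and embryonic surface epithelium 48725 bases beyond *Krt77*, fell from 20.8 ± 10.7 to 4.27 ± 1.33 CPM (log2 fold change -2.28, SE 0.32; adjusted p = 0.00393). On chromosome 11, *Krt26*, *Krt27*, *Krt28*, *Krt12* and *Krt20* had 0 to 22 counts per genotype, and *Krt23* had a log2 fold change of -0.94 (SE 0.38; adjusted p = 0.230).

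**Figure D3:**
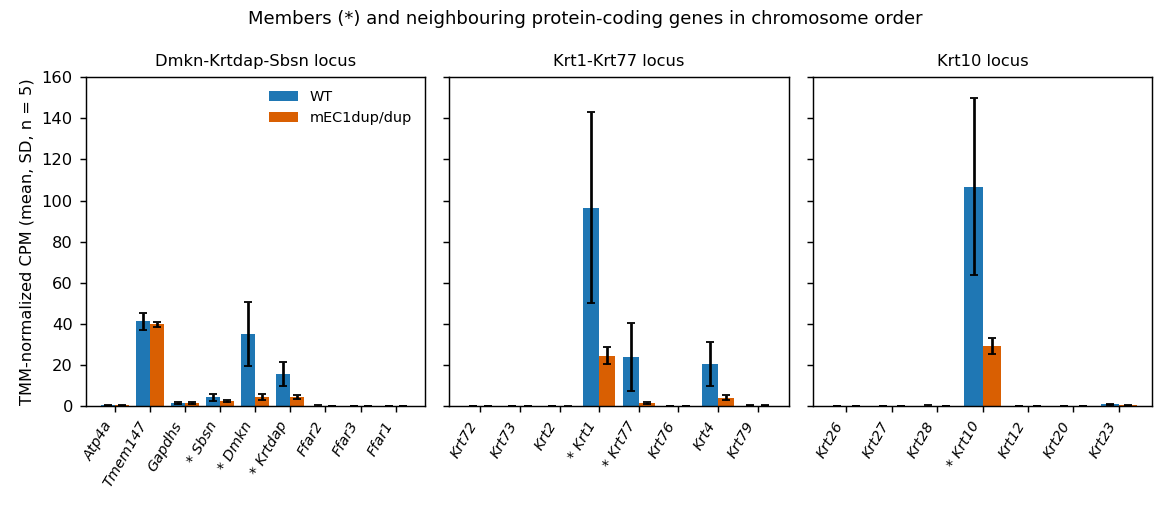
Mean TMM-normalized CPM with SD (n = 5 libraries) of the suprabasal genes (asterisks) and the nearest annotated protein-coding genes, in chromosome order; WT blue, mEC1dup/dup orange. *Tmem147* has 41.4 CPM in WT and 39.8 in mEC1dup/dup beside the lower *Dmkn* and *Krtdap*, and *Krt4* is the other abundant gene of the *Krt1* locus.

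Other genes of the suprabasal layers were taken from a list of 28 that excludes the 6. Of 18 that passed the filter, 12 were lower (66.7%, against 1.81% of all genes tested), none was higher, and all 18 had negative log2 fold changes with a median of -0.98. This and the later lists were written with earlier results of these data known, so their counts are given as a description. *Dsc1* (desmocollin 1), a desmosomal cadherin of differentiated epidermis, fell from 4.24 ± 2.13 to 0.572 ± 0.243 CPM (log2 fold change -2.87, SE 0.41; adjusted p = 0.00446, edgeR's quasi-likelihood test). It rests on 429 counts over all libraries, with 0.16 CPM in the lowest mEC1dup/dup library. With at least 10 counts required in every library, *Dsc1* was not tested, and 11 of 15 genes of this list were lower. *Abca12*, the lipid transporter of lamellar granules, fell from 4.83 ± 1.54 to 1.10 ± 0.145 CPM (-2.13, SE 0.23; adjusted p = 0.00126). The desmogleins *Dsg1a* (-1.62, SE 0.22; adjusted p = 0.00327) and *Dsg1b* (-1.55, SE 0.32; adjusted p = 0.0223) fell too; they are close copies that can share reads. Among genes that were not DEGs, *Tgm1*, the transglutaminase that crosslinks the cornified envelope, had 10.1 ± 2.42 and 6.40 ± 1.28 CPM (adjusted p = 0.0668), and *Lgals7* (galectin 7) had 8.21 ± 2.73 and 4.82 ± 0.660 CPM (adjusted p = 0.0603). *Ivl* (involucrin), the best known suprabasal envelope gene, had 18 counts over all libraries and was not tested. The number lower was 5 without WT 2, 6 without mEC1dup/dup 2, 3 or 4 in turn, and 6 without mEC1dup/dup 1 and 4 together; *Dsg1a*, *Dsc1*, *Lypd3*, *Aqp3* and *Abca12* stayed DEGs whichever single library was left out. With *Xist* as a covariate, no gene of this or the later epithelial lists was a DEG, and 14 of these 18 were lower at an unadjusted p under 0.05 (edgeR). The median of this list was -1.05 in that fit, whose covariate is largely tied to genotype. The embryonic globin share as a covariate also left no DEG, with 0 of 18 at that level, and turned the direction: the median became 0.56 and 4 of 18 estimates were negative. The medians of the later epithelial lists turned positive as well, from 0.33 (granular and cornified) to 0.83 (periderm). This share could not be separated from genotype.

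Of 20 genes of the granular and cornified layers, 14 did not pass the filter. Of the 6 that did, 4 were lower (66.7%, against 1.81% of all genes tested) and none was higher, with a median log2 fold change of -0.60. *Tgm3*, a transglutaminase of the cornified layer and hair (-1.86, SE 0.31; adjusted p = 0.00944), and *Asprv1*, a protease that processes filaggrin (-1.51, SE 0.27; adjusted p = 0.0126), fell most. *Tchh* (trichohyalin, -0.57, SE 0.13; adjusted p = 0.0363) and *Elovl4*, which lengthens fatty acids (-0.48, SE 0.10; adjusted p = 0.0207, all by edgeR's quasi-likelihood test), fell less. *Loricrin*, the main envelope protein, had 7.41 ± 1.21 and 5.65 ± 1.70 CPM (adjusted p = 0.344), and *Casp14*, a caspase of cornification, had 3.08 ± 0.563 and 1.99 ± 0.234 CPM (adjusted p = 0.0724). The count of 4 became 2 without WT 1, WT 2, mEC1dup/dup 2 or mEC1dup/dup 4 in turn and 1 without mEC1dup/dup 1 and 4 together; *Tgm3* and *Asprv1* stayed DEGs with each single library left out.

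Of 14 basal keratinocyte genes, 3 were lower (21.4%, against 1.81% of all genes tested) and none was higher, with a median of -0.38. *Krt5* fell from 327 ± 84.4 to 202 ± 27.7 CPM (log2 fold change -0.69, SE 0.15; adjusted p = 0.0257) and *Krt14*, its partner, from 221 ± 56.1 to 141 ± 16.1 CPM (-0.64, SE 0.14; adjusted p = 0.0296). *Plec* (plectin), which links keratin filaments to the membrane, had -0.32 (SE 0.07; adjusted p = 0.0350). *Krt15* (174 ± 38.9 and 123 ± 19.6 CPM, adjusted p = 0.0766), *Itgb1* (integrin beta 1, adjusted p = 0.167) and *Trp63*, the p63 factor of stratified epithelium (63.6 ± 11.1 and 49.8 ± 9.71 CPM, adjusted p = 0.217), were not DEGs by edgeR's quasi-likelihood test. The number of calls depended on single libraries: there were 0 without mEC1dup/dup 2, 3 or 5 in turn (13, 12 and 12 genes lower at an unadjusted p under 0.05), 1 without WT 2, WT 3 or mEC1dup/dup 4, 5 without mEC1dup/dup 1 and 8 without WT 4. In the fits with 0 the medians were -0.39, -0.38 and -0.37, and 2274, 2166 and 2582 of 16611, 16593 and 16602 genes tested had an unadjusted p under 0.05 in either direction. With mEC1dup/dup 1 and 4 left out together there were 0 as well, with 12 at an unadjusted p under 0.05. In the same comparison DESeq2 called 6 and limma-voom 3 over the full set of libraries. The medians of the basal and the other suprabasal list, -0.38 and -0.98, were not compared by a test.

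**Figure D4:**
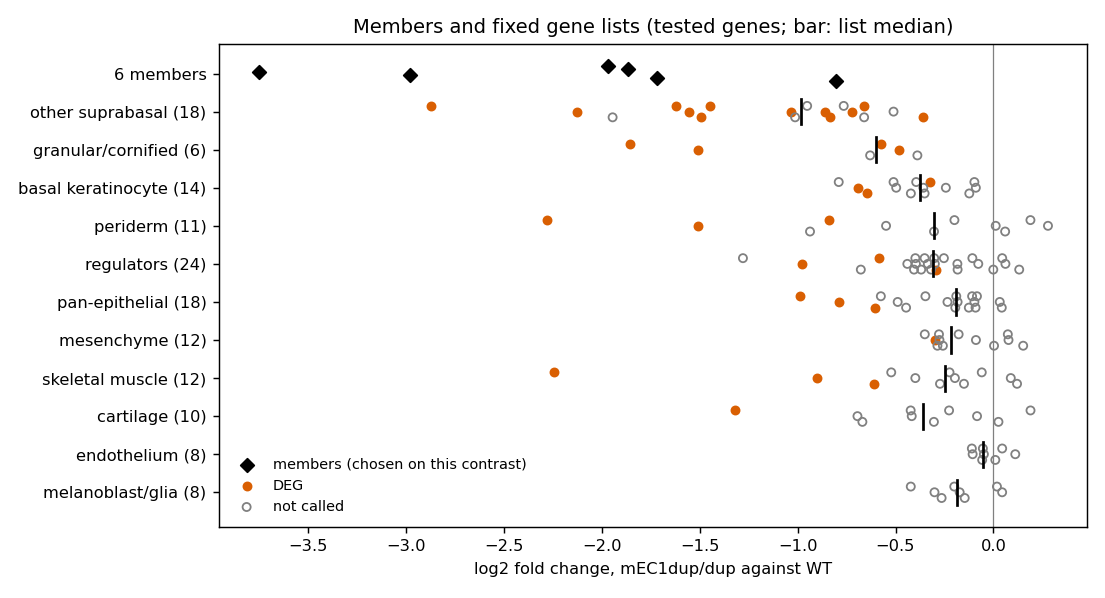
Log2 fold change (mEC1dup/dup against WT) of the 6 suprabasal genes (diamonds) and of the genes of each list that passed the filter (number in brackets); filled points are DEGs, open points are not, and bars are list medians. The other suprabasal genes have a median of -0.98, against -0.60 to -0.19 for the other epithelial lists and -0.36 (cartilage) to -0.05 (endothelium) for other cell types.

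Of 24 regulators of epidermal differentiation tested, 3 were lower (12.5%, against 1.81% of all genes tested) and none was higher, with a median of -0.31. *Grhl1*, a grainyhead factor known to act on desmosomal cadherin genes, had 10.04 ± 3.36 and 5.09 ± 0.872 CPM (-0.98, SE 0.21; adjusted p = 0.0273). *Cebpa*, a factor that restrains keratinocyte division, had 42.4 ± 6.69 and 28.2 ± 3.29 CPM (-0.58, SE 0.11; adjusted p = 0.0126), and *Jag2*, a Notch ligand, 89.4 ± 9.04 and 73.0 ± 5.31 CPM (-0.29, SE 0.07; adjusted p = 0.0407). *Notch3* (168 ± 23.0 and 159 ± 9.17 CPM; adjusted p = 0.711) and *Klf4*, a barrier factor also found in mesenchyme (101 ± 11.5 and 104 ± 7.06 CPM; adjusted p = 0.818), were not DEGs by edgeR's quasi-likelihood test. The count of 3 became 1 without WT 1, 2 or 3 or mEC1dup/dup 2, 3 or 4 in turn, 1 without mEC1dup/dup 1 and 4 together and 6 without WT 4, and *Cebpa* stayed a DEG with each single library left out.

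Of 11 genes of the periderm, the outermost embryonic layer, 3 were lower (27.3%, against 1.81% of all genes tested): *Krt4* (above), *Krt6a* (-1.51, SE 0.32; adjusted p = 0.0250) and *Krt19* (-0.84, SE 0.18; adjusted p = 0.0287). *Cldn6* (30.1 ± 3.69 and 36.5 ± 11.9 CPM; adjusted p = 0.513) and *Gabrp* (30.2 ± 3.97 and 30.4 ± 5.43 CPM; adjusted p = 0.974), the most abundant periderm genes that were not DEGs, did not go with them. Of 18 genes shared by epithelia, 3 were lower (16.7%): *Rab25* (-0.99, SE 0.18; adjusted p = 0.0125), a GTPase of recycling, *Perp* (-0.79, SE 0.15; adjusted p = 0.0136), a desmosomal protein, and *Pkp3* (-0.61, SE 0.12; adjusted p = 0.0176), a plakophilin of desmosomes. *Cdh1*, E-cadherin, had 97.1 ± 22.4 and 71.3 ± 7.77 CPM (adjusted p = 0.0947), and *Spint2*, a protease inhibitor, 90.9 ± 8.45 and 83.3 ± 11.4 CPM (adjusted p = 0.527). *Epcam*, named for its use as an epithelial marker and outside the naming rule, had 53.7 ± 4.83 and 55.3 ± 8.06 CPM (adjusted p = 0.867, all by edgeR's quasi-likelihood test). The medians were -0.30 for periderm and -0.19 for the shared epithelial genes. Of the 18 shared epithelial genes, 16 had negative estimates. Their summed level was 614 to 949 CPM in WT and 540 to 595 CPM in mEC1dup/dup, without overlap. The periderm count became 1 without WT 1 or mEC1dup/dup 2, 3 or 4 in turn and also without mEC1dup/dup 1 and 4 together. The shared epithelial count became 5 without WT 5 or mEC1dup/dup 1, 7 without WT 4 and 1 without mEC1dup/dup 1 and 4 together.

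Of 50 genes of mesenchyme, skeletal muscle, cartilage, endothelium, melanoblasts and glia, 5 were lower (10%, against 1.81% of all genes tested), none was higher, and the median was -0.19. By list the medians were -0.36 for cartilage, -0.25 for muscle, -0.22 for mesenchyme, -0.19 for melanoblasts and glia and -0.05 for endothelium; the lists were not compared by a test. The 5 were *Lum*, a matrix proteoglycan of fibroblasts (-0.30), the muscle genes *Ckm* (-2.25), *Myh8* (-0.90) and *Myh3* (-0.61), and *Snorc*, a cartilage proteoglycan (-1.32). Summed over these 50 genes, levels were 24718 to 33860 CPM in WT and 24171 to 25955 CPM in mEC1dup/dup, and their part in the lower suprabasal levels was not tested. The count was 3 without WT 3 or mEC1dup/dup 3 or 4 in turn and 8 without WT 4. It was 0 with *Xist* as a covariate (median -0.15) and 0 with the embryonic globin share (median 0.03). With replicate number as a block it was 13. For 6 proliferation genes, *Mki67*, *Top2a*, *Ccnb1*, *Cdk1*, *Pcna* and *Mcm2*, log2 fold changes ran from -0.10 to 0.09 and adjusted p from 0.301 to 0.814 (edgeR's quasi-likelihood test).

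To find genes that followed the suprabasal genes from library to library apart from genotype, log2 CPM was centred within genotype and correlated with the mean z score of the 6 genes over the 10 libraries, for 14078 genes. Among the closest were *Aqp3* (Pearson r = 0.984), a water and glycerol channel, *Krt17* (0.978), *Perp* (0.972), *Cdh1* (0.964), *Krt14* (0.962), *Sfn* (0.960), *Krt5* (0.959), *Evpl* (envoplakin, 0.948) and *Krt19* (0.946). An r above 0.9 was found for 43 genes. The libraries share depth and dissection, and the WT libraries had the wider spread. For the closest genes just named, r within WT alone ran from 0.967 (*Sfn*) to 0.997 (*Perp*). Within mEC1dup/dup alone it ran from 0.577 (*Evpl*) to 0.988 (*Sfn*), with 0.700 for *Krt19* and 0.784 for *Krt14*. Among the 6 genes themselves, r between pairs ran from 0.57 (*Dmkn* and *Sbsn*) to 0.99 (*Krt1* and *Krt10*), and *Sbsn* had the lower values throughout, from 0.57 to 0.81. Of the closest genes named here, *Krt17* (24.8 ± 9.33 and 16.9 ± 2.90 CPM; log2 fold change -0.55, SE 0.21; adjusted p = 0.216, edgeR's quasi-likelihood test) and *Cdh1* were not DEGs, and the others were lower in mEC1dup/dup.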

How the data were processed

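Libraries were made from poly(A) RNA of E14.5 pinna prominences. Per the labels and methods, the authors used fastp for trimming, STAR for alignment to GRCm39 and featureCounts for counting, and deposited raw counts per gene. The annotation release, the use of strand and the treatment of reads with several matches are not given in the sources used here, and the labels and the methods name different library kits. Reads carry no molecular identifiers, so low counts limit the precision and duplicates cannot be removed. All 10 columns of the count table were assigned to a genotype and replicate by their sample labels.

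Symbols and positions came from GENCODE vM39 (GRCm39), which matched 49355 of 53465 genes; the rest held 0.111% of the counts. Genes were filtered with filterByExpr by genotype, normalized by TMM and tested with edgeR version 4.0.16 (glmQLFit, glmQLFTest, genotype as the only term) in R version 4.3.3, with Benjamini-Hochberg adjustment over 16426 genes. The thresholds for DEGs (0.05 and an average log2 CPM of 1) are those of the study, whose methods name limma and edgeR without the test. Log2 CPM used a prior count of 2. P-values measure the spread between these libraries, which are stated to be independent embryos. Alternatives were the Wald test and size factors of DESeq2 version 1.42.0, limma-voom (limma version 3.58.1), other filters and scalings, the replicate block, covariates and each library left out. The fit was tested on simulated counts.

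The 6 genes and the lists of other genes were chosen with earlier results of these data known. Named list genes were, by a rule, the 4 DEGs with the largest log2 fold change in each list and the 2 most abundant genes that were not DEGs, with *Krt5*, *Krt14*, *Krt15* and *Trp63*, the 3 nearest protein-coding genes on each side of each locus, and the 10 genes most like the 6, of which 1 is not reported here. No group of samples other than the labelled genotypes was compared, and single-cell data of the study were not analysed here. Motifs were matched with Python version 3.11.15 and figures drawn with matplotlib version 3.10.9.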

Additional observations from a re-analysis of the deposited data

Results flagged for a closer look

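In groups of 5 libraries, a value was marked where its gap to the nearest other library exceeded 0.71 of the group's range (Dixon's test). Of 48 groups examined, 4 had such a value, and chance marks about 1 in 20 groups. The 4 are not independent of each other. They are a sum and a larger sum that contains it, and a proportion and its own log2. The summed level of *Krt5*, *Krt14* and *Krt15* in mEC1dup/dup 1 was 575.7 CPM, against 414 to 457 CPM in the other mEC1dup/dup libraries. The summed level of all 14 basal keratinocyte genes was 1748 CPM in the same library, against 1462 to 1528 CPM. mEC1dup/dup 1 is one of the libraries that held both *Xist* and Y-linked reads. The suprabasal genes stood at 17.4 CPM per 100 CPM of basal keratins in mEC1dup/dup 5, against 13.5 to 14 in the others, and on the log2 scale at -2.52 against -2.89 to -2.83. mEC1dup/dup 5 is the library of its group without *Xist* reads, and the part of sex in this was not tested.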

How the results depend on the processing

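The log2 fold changes of the 6 genes stayed negative under each normalization, test, filter, block and *Xist* covariate tried. With *Xist* as a covariate 1 gene of the whole table was called lower, so most of these genes' DEG calls were lost. That covariate is largely tied to genotype, and the SE of each of the 6 genes was larger, 0.46 against 0.27 for *Krt1*. Depth limits *Sbsn* and the low mEC1dup/dup counts of *Krt77* most. Over the libraries left out in turn, log2 fold changes ran from -2.11 to -1.67 (*Krt1*), -1.99 to -1.62 (*Krt10*), -3.96 to -3.32 (*Krt77*), -3.16 to -2.71 (*Dmkn*), -1.87 to -1.52 (*Krtdap*) and -0.93 to -0.54 (*Sbsn*), and the log2 proportion to basal keratins from -1.44 to -1.27. With embryonic globin share as covariate (a later choice) they reversed to 1.13, 0.89, 0.90, 0.20, 0.53 and 1.34 in the same order of genes. With *Xist* as a covariate *Sbsn* moved to -1.27, and in the libraries without *Xist* alone, also added later (5 WT against mEC1dup/dup 5, whose spread is taken from WT), *Sbsn* moved to -1.29 and *Dmkn* to -2.43; the cause was not tested. With the pan-epithelial genes as denominator the proportion was -1.60. Per kilobase of coding length, WT levels moved to 50.5 (*Krt1*), 14 (*Krt77*), 49.5 (*Krtdap*) and 2.10 (*Sbsn*), by construction. Of the 10 genes most like the 6, 2 were also among the closest 10 in WT alone and 2 by Spearman's rho.

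Over the whole table, 510 genes were lower and 321 higher with DESeq2's Wald test. There were 105 and 42 without mEC1dup/dup 1 and 4, 1 and 2 with *Xist* as a covariate (1534 at an unadjusted p under 0.05, edgeR), and 0 and 0 both with the globin covariate (797 at that level) and in the libraries without *Xist* alone (1171). Neither says anything of stability: the first share is confounded with genotype, and the second fit has 1 mEC1dup/dup library. Over the libraries left out in turn the counts ran from 120 to 476 and from 34 to 179. Counts of lower genes in the lists ran from 5 to 14 (other suprabasal), 2 to 4 (granular and cornified), 0 to 8 (basal), 1 to 6 (regulators), 1 to 3 (periderm), 2 to 7 (pan-epithelial) and 3 to 8 (other cell types). DESeq2 gave 6 basal, 5 pan-epithelial and 8 other cell type genes, no filter gave 6 basal and 7 pan-epithelial genes, and limma-voom 1 periderm gene. Without mEC1dup/dup 1 and 4 the counts were 6, 1, 0, 1, 1 and 1 for the first 6 lists in the order above. With either covariate, and in the libraries without *Xist* alone, all these lists had 0 (edgeR). With *Xist* as a covariate the list medians were -1.05, -0.65, -0.54, -0.30, -0.30, -0.20 and -0.15 in the order above. With the globin covariate they turned to 0.56, 0.33, 0.60, 0.64, 0.83, 0.61 and 0.03 in the order above, and 0 of 14 basal, 0 of 11 periderm and 1 of 18 pan-epithelial estimates stayed negative.

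Some named genes with main estimates near 0 changed sign: *Klf4* was -0.063 and *Gabrp* -0.29 with *Xist* as a covariate, *Gabrp* was -0.27 and *Klf4* -0.060 in the libraries without *Xist* alone, *Gabrp* was -0.028 without mEC1dup/dup 1 and 4, and *Sox10* was -0.0062 with limma-voom and -0.0016 with the replicate block. With libraries left out they ran from -0.013 to 0.084 (*Klf4*), -0.082 to 0.078 (*Gabrp*), -0.049 to 0.066 (*Cdh5*) and -0.073 to 0.14 (*Sox10*).

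The labels give same-numbered libraries nothing in common but the number, and pairing was not established: the correlations of their deviations from the group means were -0.06, 0.14, 0.18, 0.34 and 0.20 for numbers 1 to 5, and 4 of 10 libraries correlated best with their own number. A replicate block gave 487 lower and 200 higher genes, the lists had 10 basal, 7 regulator, 7 pan-epithelial and 13 other cell type genes lower, and the 6 genes had -1.88 (*Krt1*), -1.80 (*Krt10*), -3.59 (*Krt77*), -2.91 (*Dmkn*), -1.68 (*Krtdap*) and -0.75 (*Sbsn*).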
